A study of Mus musculus with 5 samples.

Results

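Cytosine methylation was read at the genes for the enzymes that write and remove it, and at the gene for mitochondrial isocitrate dehydrogenase, in mouse LSK cells with and without the Idh1-R132H mutation. The loci are Dnmt1, Dnmt3a, Dnmt3b, Tet1, Tet2, Tet3 and Idh2, chosen by gene name and bounded by 7 fixed windows on the mouse build mm9. They held 234 tiles of 1 kb with at least 1 listed CpG position, out of 502761 such tiles on the autosomes. LSK cells, sorted from bone marrow as lineage-negative, Sca1-positive and Kit-positive, include the stem cells and early progenitors of blood. All 5 libraries came from bone marrow of mice on a mixed 129Ola and C57Bl/6J background: 3 carried the Idh1-R132H knock-in allele, and 2 were wild-type. The promoter that drives the allele, and the number and age of the mice, are not stated in the labels. The labels do not say that libraries came from separate animals, so each p-value covers only the spread among 5 libraries, and that spread may be technical.

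Idh1 is the cytosolic isocitrate dehydrogenase, and its R132H form makes 2-hydroxyglutarate, which can inhibit enzymes that need 2-oxoglutarate, among them the TET proteins. Dnmt3a and Dnmt3b place methyl groups on unmethylated CpGs, and Dnmt1 copies the pattern to the new strand after replication. Tet1, Tet2 and Tet3 oxidise methylated cytosine, the first step of its removal. Idh2 is the mitochondrial relative of Idh1. DNMT3A, TET2, IDH1 and IDH2 are recurrently mutated in human acute myeloid leukaemia. In most vertebrate genes a CpG-rich start is unmethylated whether the gene is active or not, while the gene body is methylated.

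The assay was extended reduced representation bisulfite sequencing (ERRBS), in which DNA is cut at CCGG and converted so that unmethylated cytosine is read as T. The sequences printed here show the CpGs that the assay read at the starts of these genes: they are the 250 bases before a RefSeq start of 4 loci (build GRCm38.p6, 5′ to 3′ on the gene's strand), with capitals for each CpG that at least 1 library listed with 10 or more reads. Dnmt3a is shown for its many CpGs, Tet2 for the densest start of the 7 genes, Tet3 for the start with the highest number of shared positions among the 4 printed, and Idh2 for a start at which no position was shared by all libraries. On the + strand at chr12:3806730-3806979 lies the Dnmt3a sequence, and the other 3 are on the - strand, at chr3:133544391-133544640 (Tet2), chr6:83441679-83441928 (Tet3) and chr7:80115351-80115600 (Idh2).
Dnmt3a: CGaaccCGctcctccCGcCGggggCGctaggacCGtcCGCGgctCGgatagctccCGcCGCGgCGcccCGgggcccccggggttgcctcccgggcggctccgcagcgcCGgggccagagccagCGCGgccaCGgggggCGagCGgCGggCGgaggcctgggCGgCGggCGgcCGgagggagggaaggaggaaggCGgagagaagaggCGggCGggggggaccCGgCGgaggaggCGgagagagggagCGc
Tet2: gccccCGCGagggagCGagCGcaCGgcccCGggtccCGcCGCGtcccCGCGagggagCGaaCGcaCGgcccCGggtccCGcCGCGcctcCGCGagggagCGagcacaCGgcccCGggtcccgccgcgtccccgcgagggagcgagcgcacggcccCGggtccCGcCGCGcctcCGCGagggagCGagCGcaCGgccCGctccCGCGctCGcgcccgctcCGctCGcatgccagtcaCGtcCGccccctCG
Tet3: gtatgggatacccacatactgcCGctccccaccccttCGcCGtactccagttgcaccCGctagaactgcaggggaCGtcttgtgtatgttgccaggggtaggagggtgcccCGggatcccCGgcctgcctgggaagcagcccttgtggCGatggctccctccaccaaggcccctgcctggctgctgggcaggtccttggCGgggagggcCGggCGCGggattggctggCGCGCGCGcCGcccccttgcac
Idh2: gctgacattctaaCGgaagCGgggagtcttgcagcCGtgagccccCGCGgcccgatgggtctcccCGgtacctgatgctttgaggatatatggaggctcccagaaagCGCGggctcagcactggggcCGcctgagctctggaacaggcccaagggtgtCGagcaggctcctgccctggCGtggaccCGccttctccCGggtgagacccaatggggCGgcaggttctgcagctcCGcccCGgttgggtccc
Of the 38 CpGs in the Dnmt3a sequence 33 were listed, and 4 of them were read in all 5 libraries. The Tet2 sequence held 51 CpGs, of which 41 were listed and 5 were read in every library. All 17 CpGs of the Tet3 sequence were listed and 11 were shared, while the Idh2 sequence had 16 of 17 listed and 0 shared. RefSeq promoters of 300 bases (250 before to 50 after the start) have a median of 7 CpGs, and 52.8% of the 32851 in the table hold CCGG. Only 0.152% of them have at least as many CpGs as that of Tet2, and 1.65% as many as that of the first Dnmt3a start. For Dnmt1 the share is 8.56% at the most CpG-rich of its 3 RefSeq starts, and 39.6% and 85.9% at the other 2. It is 11.7% for Dnmt3b, 23.1% for Tet3, 26.5% for Idh2 and 31.4% for Tet1.

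Depth set what could be compared. The tables listed between 447270 (wild-type 1) and 2028186 (knock-in 3) positions per library, with a median coverage of 16 to 33 reads, and only positions with at least 10 reads were deposited. Knock-in 2 and wild-type 1 were the shallowest libraries, and they also stood apart on the X chromosome, where CpG-dense tiles were at 23.9% and 23.8% against 3.01 to 3.74% in the other 3. This split crosses the genotypes, and the 7 loci are on autosomes. At 27 mitochondrial CpGs 0.0363 to 0.198% of reads were called methylated, a measure of the background of the assay. RefSeq starts were placed on mm9 by the spacing of listed CpGs, and 9 of 11 member starts could be placed, at least 1 in each gene. The 2 that could not be placed were both starts of Dnmt1. The tables hold no expression, so cell type markers could be read only at their starts, and 3 of 13 marker genes could be placed. The starts of Kit, Flt3 and Runx1, genes used by blood stem and progenitor cells, reached at most 4.79, 0.303 and 4.89% methylation in any library that read them. Kit was read in 3 libraries. No marker of a mature lineage could be placed. A CpG-rich start is mostly unmethylated whether the gene is active or not, so these levels do not check the cell type.

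The 7 windows held 1837 listed CpG positions, counting each strand on its own, and 208 of these (11.3%) were read in all 5 libraries, close to the 12.05% of all autosomal positions. They were split unevenly: 59 in Dnmt3a, 52 in Tet3, 33 in Dnmt1, 24 in Tet1, 15 in Idh2, 14 in Tet2 and 11 in Dnmt3b. Within 1 kb of a placed start lay 136 of the 208. Median coverage over the 208 positions was 60.5 and 26 reads in knock-in 1 and 2 and 17 and 43 reads in wild-type 1 and 2, and it was highest in knock-in 3. Of these positions 133 (63.9%) were at 0 in every library, against 52.9% of shared autosomal positions, and 3 were at 100% in every library. Levels are means over the cells of a library, so a change within cells and a change in the mix of cells cannot be told apart.

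**Figure D1:**
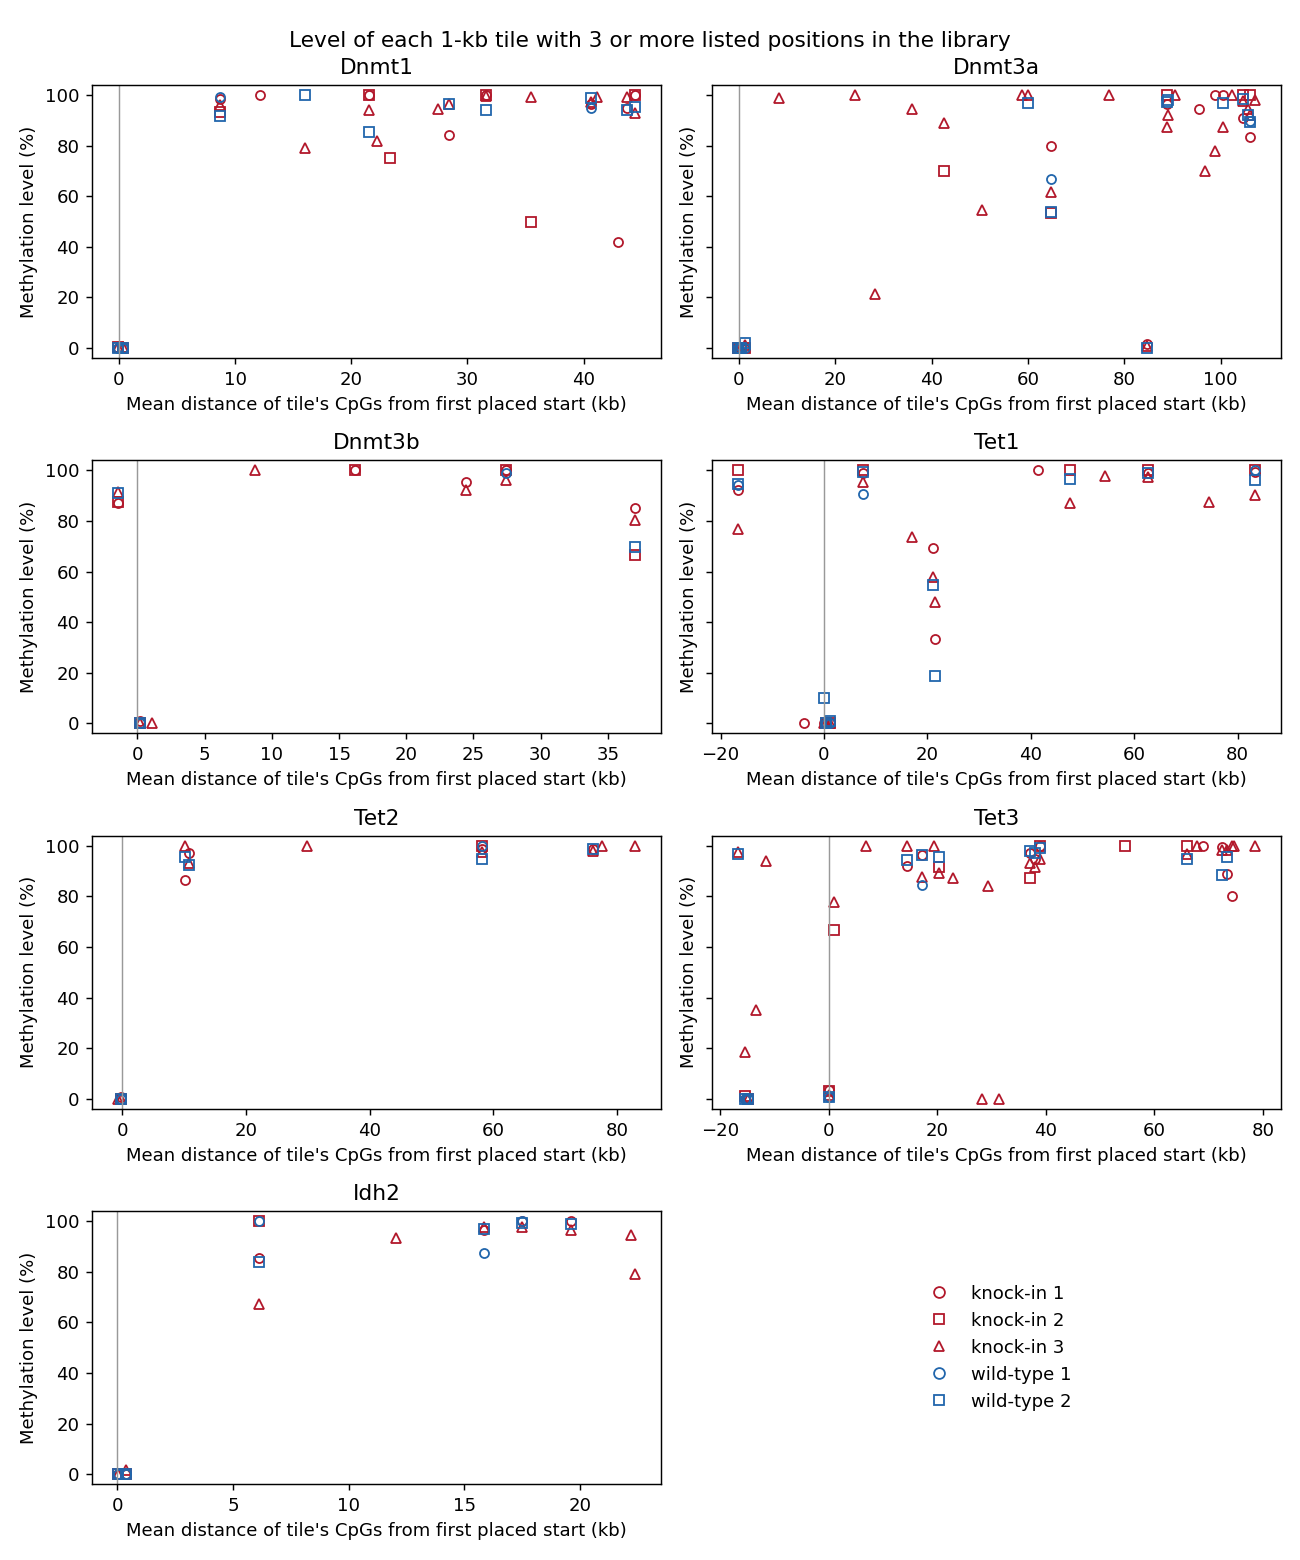
Methylation level (%) of 1-kb tiles of the 7 loci, over the positions that each library itself listed (3 or more), against the distance (kb) from the first placed start (grey line), in red for knock-in and blue for wild-type libraries. Levels are near 0 at the starts, except for wild-type 2 at 10.0% in Tet1, and mostly above 80% elsewhere. Lower tiles include the inner start of Dnmt3a, its body at 64.8 kb and the 3′ end of Dnmt3b. Others lie upstream of Tet3 and about 21 kb into Tet1. Some tiles are low in 1 library only, such as knock-in 2 at 50% in Dnmt1, 35.5 kb downstream. Several low tiles were listed by 1 library alone.

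Near their placed starts the loci were nearly free of methylation at the positions that all libraries shared. Over the shared positions within 1 kb of a start, the mean level was at most 0.463% in every library at Dnmt1, Dnmt3a, Dnmt3b, Tet1, Tet2 and Idh2. Tet3 was the exception, with means of 0.363 to 2.24%, which included 1 position, described below, that was partly methylated in the knock-in libraries. At the Tet1 start itself no position was shared, and wild-type 2, the 1 wild-type library that read it, was at 10.0% there. Beyond 1 kb the means over shared positions of Dnmt1 and Idh2 were at or above 87.8% in all 5 libraries, whereas those of Dnmt3a and Dnmt3b lay between 72.8% and 88.6%. Single positions went outside these ranges, such as Dnmt1 20748218 at 52.6% in knock-in 2. Tet1 and Tet3 had lower means away from the start, since both hold further unmethylated positions there. No locus had groups that did not overlap.

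The maintenance enzyme Dnmt1 had a highly methylated body and was unmethylated at the 1 of its 3 RefSeq starts that could be placed. The 22 shared positions near the start were at 0.0342%, 0% and 0.241% in knock-in 1, 2 and 3, and at 0% and 0.142% in wild-type 1 and 2. The 11 shared positions in the body were at 97.6%, 95.7% and 97.5% in knock-in and at 99.5% and 92.8% in wild-type libraries. The wild-type pair thus enclosed all knock-in values in the body. The tile from 20748000 to 20748999 on chromosome 9, 8.67 kb downstream of the placed start, held 7 of these positions at 97.6, 93.2 and 97.8% in knock-in and 99.2 and 91.5% in wild-type cells. Over the whole window the mean was 32.4% ± 0.410 (SD, n = 3) over the knock-in and 32.1% ± 1.52 (SD, n = 2) over the wild-type libraries, a difference of 0.282 points (exact 2-sided permutation p = 0.8). With 10 divisions of the libraries into 3 and 2, the smallest p that this test allows is 0.1, so none of the 7 loci could pass 0.05. The unmethylated stretch around the start, in which every listed position was under 20% over pooled reads, spanned 1297 bases and 65 positions. The next listed position into the gene, 20755998, was at 68.8% in knock-in 1 and 0% in knock-in 3. No shared position lay between 0.417 and 8.39 kb downstream of the start, so how sharp the boundary is was not measured.

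Dnmt3a, which sets new methylation and is needed for blood stem cells to differentiate, had the longest unmethylated start among the 3 Dnmt genes. Its stretch under 20% covered 2354 bases and 340 positions around 2 starts that lie 180 bases apart. At its 50 shared positions near a start the level was 0.0260%, 0% and 0.190% in knock-in 1, 2 and 3, and 0% and 0.0364% in wild-type 1 and 2. Over all positions that each library listed in the 300 bases around the first start, 4 of 10405 reads were methylated. Such sums count a read once at each position it covers. A further start lies 84.8 kb into the gene, and its 300 bases gave 3 methylated of 1049 reads, all 3 of them in knock-in 3. Wild-type 1 listed no position there, so that start was read in 4 libraries. In the 3 deepest libraries (knock-in 1, knock-in 3 and wild-type 2) the tile of this inner start was at 2.53%, 0.649% and 0% over 6 positions.

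The body of Dnmt3a held the 1 tested tile of intermediate level among the 7 loci. This tile, from 3871000 to 3871999 on chromosome 12 and 64.8 kb downstream of the first start, was at 62.0%, 76.9% and 64.9% in knock-in and at 66.7% and 48.0% in wild-type libraries. Over its 3 shared positions knock-in 2 was highest and wild-type 2 lowest, and wild-type 1 lay among the knock-in values. The means were 67.9% ± 7.92 (SD, n = 3) and 57.3% ± 13.2 (SD, n = 2), a difference of 10.6 points that was within the spread between libraries (edgeR's quasi-likelihood test, adjusted p = 1). The difference ranged from 1.26 to 19.9 points when each library was left out in turn, and was lowest without wild-type 2. The ranking depended on which positions were used. Over all positions that each library itself listed in the tile, knock-in 2 was lowest, at 53.3% over 11 positions. Knock-in 1 and 3 were then at 79.7% and 61.6%, wild-type 1 and 2 at 66.7% and 53.8%, and the difference was 4.65 points. The tile's 3 shared CpGs did not have 1 common level: at position 3871824 knock-in 2 had 8 of 26 reads methylated, while at 3871815 and 3871853 all its 25 and 26 reads were. Wild-type 1 had 8 of 12 reads methylated at each of the 3 positions, and 12 reads can give only coarse steps.

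**Figure D2:**
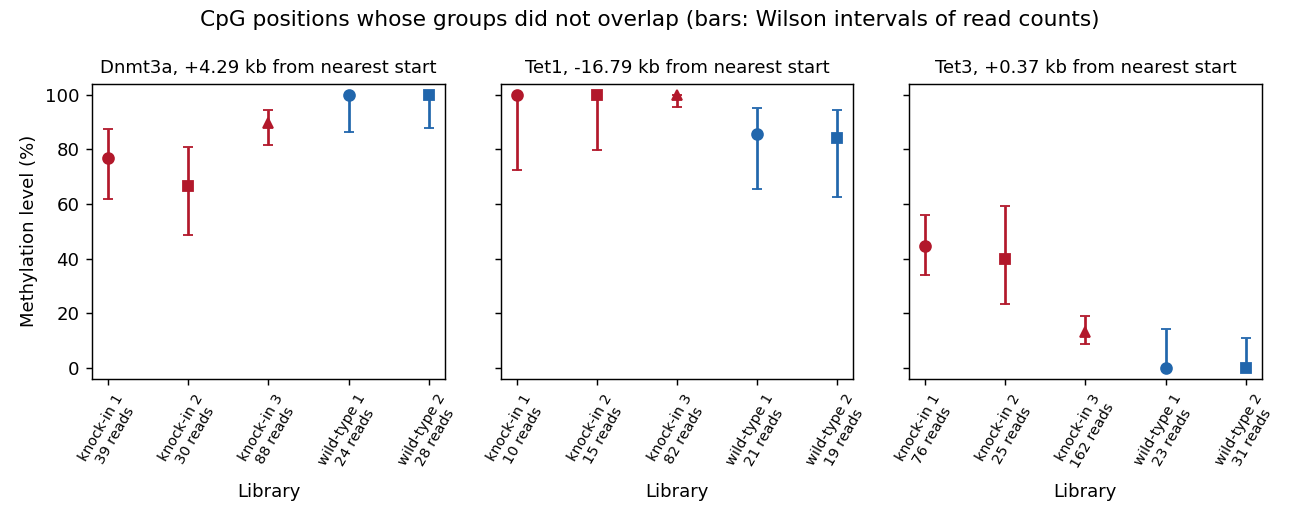
Methylation level (%) with 95% Wilson intervals in each library at the CpG positions that the text describes singly, with knock-in and wild-type libraries side by side. At the Tet3 position all 3 knock-in libraries lie above wild-type levels of 0%, at the Dnmt3a position all lie below 100%, and at the Tet1 position all are at 100%.

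Single Dnmt3a positions varied more than the locus. At 3896035 on chromosome 12 (F strand), 4.29 kb downstream of the inner start, methylation was 76.9%, 66.7% and 89.8% in knock-in 1, 2 and 3, from 39, 30 and 88 reads. Both wild-type libraries were at 100% there, from 24 and 28 reads, with lower 95% Wilson bounds of 86.2% and 87.9%. All knock-in libraries therefore lay below both wild-type libraries, by 22.2 points on average, but the adjusted p of edgeR's quasi-likelihood test was 1. The nearest shared position, 3895996, was at 100% in all 5 libraries. Over the 9 shared positions beyond 1 kb the means were 82.0% ± 8.24 (SD, n = 3) and 82.0% ± 4.85 (SD, n = 2). In knock-in 1 the 72.8% over these positions was the lowest of the 5 libraries, and knock-in 2 at 88.6% was the highest.

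Dnmt3b, the second enzyme for new methylation, was sampled thinly. Its 9 shared positions near the start were at 0.122% in knock-in 1, 0.171% in wild-type 2 and 0% in the other 3 libraries. Just upstream, 2 shared positions in the tile from 153473000 to 153473999 on chromosome 2 were at 85.1%, 75.0% and 84.8% in knock-in and at 76.7% and 82.2% in wild-type libraries, so the edge of the unmethylated start was met within 1.44 kb. The position nearer the start, 153473783, was at 50.0 to 76.0% in the 5 libraries, and the other, 153473750, at 93.0 to 100%. The groups overlapped at both. The whole locus averaged 14.9% ± 1.08 (SD, n = 3) with and 14.5% ± 0.811 (SD, n = 2) without the mutation (difference 0.363 points, exact permutation p = 0.6).

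Near the 3′ end of Dnmt3b the 2 strands of single CpGs went separate ways in every library that read them. In the tile from 153512000 to 153512999, read in the 3 deepest libraries, the mean was 72.5%, 66.2% and 69.6% in knock-in 1, knock-in 3 and wild-type 2. The forward strand of the CpG at 153512358 was at 0%, 2.47% and 0% in these libraries, while its reverse strand was at 100%, 87.3% and 97.8%. At the CpG at 153512309 the forward strand was at 100%, 100% and 97.7% and the reverse strand at 35.3%, 22.4% and 28.6%. The split was alike in the 2 knock-in libraries and the 1 wild-type library. Whether these mice carry the mm9 bases at such CpGs was not tested, and where they do not, the level of a strand does not measure methylation. CpGs with strands more than 50 points apart made up 1.42, 1.72, 3.04, 0 and 1.45% of the CpGs read on both strands in the 7 loci (knock-in 1, 2, 3, wild-type 1, 2), beside 2.08, 2.87, 3.77, 1.31 and 2.84% over all autosomes.

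Tet1 had the longest stretch under 20%, but it was thinly read. It ran over 7115 bases, from upstream of the placed start into the gene, with 77 positions, beside 340 over 2354 bases in Dnmt3a. No position was listed between the tiles that start at 62350000 and 62353000, so the length includes unread bases. Its downstream end rested on the tile from 62346000, listed by knock-in 1 alone, with 2 positions at a mean of 33.3%. Within the stretch, the 10 shared positions between 62348959 and 62349038 on chromosome 10 were at 0% in every library but for 1.10% at 1 position in knock-in 3. The tile from 62349000 to 62349999 was at 0.277% in knock-in 3 and at 0% in the other 4. At the placed start, 5 of 463 reads were methylated, and all 5 were in wild-type 2. That library was at 10.0% over 50 reads summed over 5 positions (95% Wilson interval 4.35 to 21.4%). The interval is too narrow if the same reads cover several of these positions. In knock-in 1 and 3, 165 and 248 reads held none. Knock-in 2 and wild-type 1 listed no position in those 300 bases.

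Over shared positions the level difference of Tet1 was the widest of the 7 loci and rested on the shallowest library. Over its 24 shared positions Tet1 was at 43.3%, 45.8% and 44.3% in knock-in and at 39.4% and 43.9% in wild-type libraries. Wild-type 1 was lowest, and wild-type 2 lay between knock-in 1 and knock-in 3. The means were 44.5% ± 1.26 (SD, n = 3) and 41.7% ± 3.20 (SD, n = 2), and the difference of 2.80 points had an exact permutation p of 0.3. Without wild-type 1 the difference was 0.537 points, and over the 3 libraries with low X methylation alone it was -0.137 points. The tile from 62342000 to 62342999, 7.56 kb into the gene, had the lowest edgeR p of the member tiles, at 0.178 before adjustment and 1 after it. Its 3 positions were at 98.0%, 100% and 100% in knock-in and at 90.7% and 99.2% in wild-type libraries, and without wild-type 1 the difference fell from 4.37 to 0.113 points. In the tile from 62295000 to 62295999, which had too few shared positions to be tested, wild-type 1 was again lowest at 45.8%, against 93.6% in wild-type 2 and 89.5%, 100% and 96.6% in knock-in.

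Away from those tiles Tet1 was methylated in most places. At 62366861 (F strand), 16.8 kb upstream of the placed start, all knock-in libraries were at 100%, from 10, 15 and 82 reads. Wild-type 1 and 2 were at 85.7% and 84.2%, from 21 and 19 reads, so that 3 unmethylated reads in each set the difference of 15.0 points (edgeR, adjusted p = 1). The groups did not overlap, but the Wilson interval of knock-in 1 began at 72.2%. About 21 kb into the gene 2 tiles had intermediate means in the 3 deepest libraries. The tile from 62328000 was at 33.3% in knock-in 1, 36.1% in knock-in 3 and 29.2% in wild-type 2, and the next tile at 69.4%, 49.96% and 46.9%. Wild-type 2 was lowest in both tiles, and with 1 wild-type library there is no replicate check. These means mix unlike positions: in the first tile 62328445 was at 0% in all 3 libraries and 62328480 at 0 to 17.9%, while 62328976 was at 87.5 to 100%. In the second tile the forward strand of the CpG at 62329056 was at 0% in all 3, while its reverse strand was at 76.6% in knock-in 3 and 80.6% in wild-type 2, the same kind of split by strand as in Dnmt3b and with the same limit.

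Tet2, the loss of which expands blood stem cells in mice, had the most CpG-rich start and the lowest level over shared positions near it. At its 14 shared positions, all within 1 kb of the start on chromosome 3, knock-in 3 was at 0.0669% and the other 4 libraries at 0%. Over all positions that each library listed in the 300 bases around the start, 5 of 7063 reads were methylated. All 5 were in knock-in 1, at a single position that was at 38.5% there. The 142 reads of wild-type 1 held 0 methylated, which allows up to 2.11%. The 3909 reads of knock-in 3 held none either, which allows up to 0.0767%. Both limits treat reads at neighbouring positions as independent, so they may be too low. No position farther than 1 kb was shared, so the body of Tet2 was not compared over all libraries. In the 3 deepest libraries 12 positions there were at 95.0%, 96.6% and 96.8% in knock-in 1, knock-in 3 and wild-type 2.

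Tet3 had the highest methylation over shared positions near its start and the shortest unmethylated stretch of the placed starts, 463 bases and 51 positions. Over 29 shared positions in the tile from 83391000 to 83391999 on chromosome 6, the level was 2.24%, 1.38% and 0.704% in knock-in and 1.06% and 0.363% in wild-type libraries. The groups overlapped, since wild-type 1 exceeded knock-in 3. The means were 1.44% ± 0.773 (SD, n = 3) and 0.714% ± 0.496 (SD, n = 2), and edgeR's quasi-likelihood test gave an adjusted p of 1. Within the 300 bases around the start, 62 of 8134 reads were methylated, and levels per library ran from 0.533% (knock-in 3) to 3.33% (knock-in 2), with wild-type 1 at 1.63%.

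A single CpG position near the Tet3 start carried that difference: over the other 28 positions of the tile it was -0.408 points. At 83391303 (F strand), 369 bases downstream of the start and past the edge of the unmethylated stretch, 34 of 76, 10 of 25 and 21 of 162 reads were methylated in knock-in 1, 2 and 3, that is 44.7%, 40.0% and 13.0%. No read of 23 and 31 was methylated in wild-type 1 and 2, whose upper 95% Wilson bounds were 14.3% and 11.0%. All 3 knock-in levels exceeded those of the wild-type pair, although the interval of knock-in 3 (8.64 to 19.0%) overlapped those of the wild-type libraries. The difference of 32.6 points had an edgeR p of 0.0351 before adjustment, and its adjusted p over all 280635 positions was 1. It was the only one of the 208 member positions with an unadjusted edgeR p under 0.05, where the background over all positions was 0.266%.

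A separate unmethylated block lay upstream of the placed Tet3 start. The tile from 83406000 to 83406999, 14.9 kb upstream, was at 0.128% in knock-in 3 and at 0% in the other 4 libraries over 15 shared positions. In the next tile, 15.6 kb upstream, knock-in 2 was at 0.901% and knock-in 3 at 0.0896% over 6 shared positions, and the other 3 libraries were at 0%. Knock-in 3 listed 16 positions in that tile, and over these it was at 18.3%, so the tile was not unmethylated throughout. In the gene body, by contrast, 2 shared positions about 17 kb downstream of the start were at 82.5 to 100%. Knock-in 3 alone also listed tiles at 0% in the body, 28.3 and 31.4 kb downstream with 3 positions each, which no other library could check. Read in the 3 deepest libraries, the 118 positions beyond 1 kb fell into 2 sets, so their means of 45.5%, 45.2% and 45.3% describe neither. The tile from 83354000 to 83354999 in the body was at 97.2%, 95.6% and 97.5% in knock-in 1, knock-in 3 and wild-type 2.

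Idh2 had an unmethylated start and a highly methylated body in both genotypes. The tile of its start, from 87260000 to 87260999 on chromosome 7, was at 0.463% in knock-in 2 and at 0% in the other 4 libraries over 9 shared positions. In the neighbouring tile the 3 deepest libraries gave 0.134%, 0.203% and 0% over 17 positions. Its 6 shared positions beyond 1 kb were at 91.5%, 100% and 87.8% in knock-in and at 96.7% and 88.6% in wild-type libraries. Here the 2 shallowest libraries, 1 of each genotype, were the highest. The tile from 87254000 to 87254999, 6.11 kb into the gene, differed by -0.179 points between group means of 91.7% ± 7.53 (SD, n = 3) and 91.9% ± 11.5 (SD, n = 2), and leaving out 1 library at a time moved this to between -8.30 and 7.94 points. It was lowest without wild-type 2 and highest without wild-type 1. Over the whole locus the difference was 0.277 points (exact permutation p = 1).

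**Figure D3:**
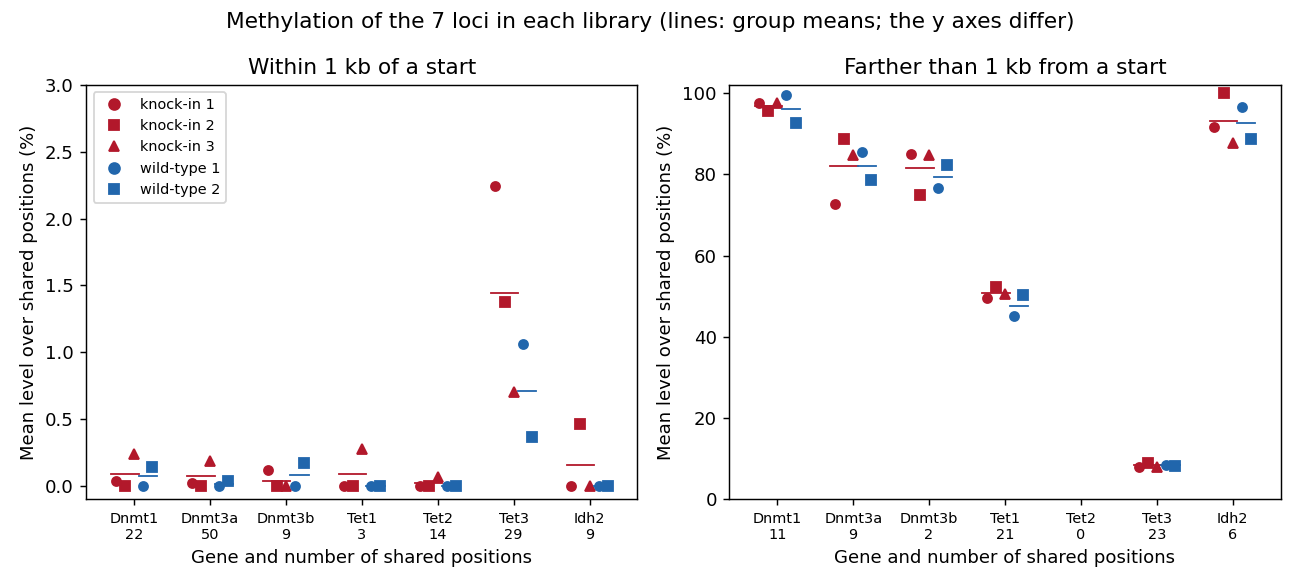
Mean methylation level (%) over shared CpG positions of each locus in each library, near a start (within 1 kb) and farther away, with knock-in and wild-type points and group means. Near the start every library of every gene lies under 3%, and away from it the groups overlap in each gene that has shared positions there.

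Set side by side, the 7 loci gave no difference between genotypes that exceeded the spread between libraries. All 7 whole-locus means were higher in knock-in than in wild-type cells, by 0.0223 points in Tet2 to 2.80 points in Tet1 over shared positions, with exact permutation p-values from 0.3 to 1. This direction was not stable, as leaving out 1 library turned the sign in Dnmt1, Dnmt3a, Dnmt3b and Idh2. Of the 19 tiles with at least 3 shared positions, 14 were higher and 3 lower in knock-in means, with a median difference of 0.0639 points. Over all 24319 autosomal tiles tested the median was 0.0743 points, and 58.4% of tiles were higher and 32.2% lower. Of the 19, 13 had a mean under 20%, 5 were above 80% and 1 lay between, and in 12 every library was under 1%.

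**Figure D4:**
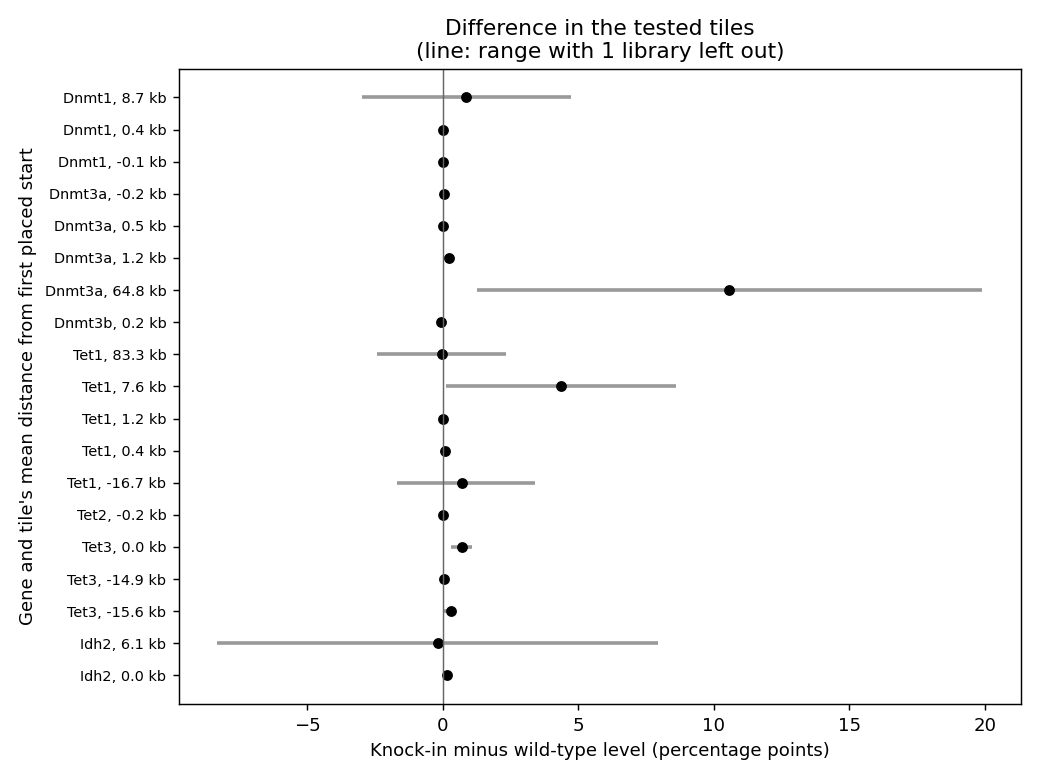
Difference in methylation (percentage points, knock-in minus wild-type mean) of the tested tiles of each locus, with the range found when each library was left out in turn. The tile at 3871000 in Dnmt3a lies farthest from 0 at 10.6 points, with a range of 1.26 to 19.9, and most others sit close to 0.

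In none of the 19 tiles did the groups fail to overlap, where over all tiles 9.03% had every knock-in library higher and 3.6% every knock-in library lower, and 2.89% had groups that did not overlap with means at least 10 points apart. By edgeR's quasi-likelihood test 0 of the 19 passed an adjusted p of 0.05, as did 0 of all 24319 tiles (0.0%). Without adjustment 0 of the 19 had a p under 0.05 by edgeR, beside 1.59% of all tiles, and 0 by limma, beside 3.66%. The 19 edgeR p-values ran from 0.178 to 1. Among the 208 positions 2 had every knock-in library higher and 1 every knock-in library lower, beside 2.38% and 0.987% of all shared positions, and all 3 are described above. All 3 also had means at least 10 points apart. Both conditions together thus held for 3 of 208 member positions, beside 2.78% of all shared positions. The 1 position in the genome with an adjusted edgeR p under 0.05 (0.000356% of positions) lay outside the 7 loci.

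Other genes of the pathway were compared at their starts only, from a list of 15, of which 8 could be placed. Uhrf1, which guides Dnmt1 to newly copied DNA, Hells, a remodeller needed for methylation, the glycosylases Tdg, Mbd4 and Smug1, and the dehydrogenases Idh1 and Idh3b were at most 0.673% in any library. Of the 7 members, all but Tet1 and Tet3 had starts at or under 1.04% in every library. Placing a start needed at least 6 listed CpGs, so starts with few CpGs were left out. CpG-rich starts are mostly unmethylated in any case, so these low levels do not link the other genes to the members. The exception among the other genes placed was Zbtb33, a reader of methylated DNA on the X chromosome. Its start was at 19.0% in knock-in 2 and 29.6% in wild-type 1, and at no more than 0.0531% in the other 3 libraries, the same split as over the X chromosome as a whole.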

How the data were processed

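The authors deposited 1 table per library, per the file headers with chromosome, position, strand, coverage and the percent of C and of T. Coverage is a whole read count of at least 10, and the deposited percent values were turned back into methylated and unmethylated read counts. The submitters' processing notes name CASAVA 1.7, Bismark (version not given in the sources used here) and mm9. Duplicate removal is not stated. Reads carry no molecular identifiers, so intervals (Wilson, 95%) and limits (3 counts over the reads for a count of 0) cover counting error only. Where reads were summed over several positions, a read counts once at each position it covers. Intervals and limits from such sums treat these counts as independent and may be too narrow.

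Levels are percent methylated reads per CpG position and strand, averaged unweighted over shared positions of a window or a tile of 1 kb. Shared means 10 or more reads in each of the 5 libraries (280635 autosomal positions). Tiles with at least 3 such positions, and single positions, were tested over the whole table with edgeR 4.0.16 (quasi-likelihood, a term per library, Benjamini-Hochberg at 0.05). limma 3.58.1 on arcsine levels was an alternative, and both were tested on simulated data. Tools were R 4.3.3 and Python 3.11.15 with pandas 2.3.3, numpy 2.4.6, matplotlib 3.10.9 and scipy 1.17.1. Locus means were put to an exact permutation test, 2-sided, over 10 divisions. Replicate numbers follow the order of deposition and pair nothing.

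No mm9 genome was used here. RefSeq promoters of GRCm38.p6 were placed on mm9 positions by CpG spacing: at least 6 CpGs had to match, with a lead of at least 3 over the next shift, and all listed CpGs inside had to match. Distances are from the nearest placed start for positions and the first placed start for tiles. Named per window were the tile with the most shared positions, with the largest difference and with the lowest p, intermediate tiles (20 to 80%), and the position with the widest gap between groups that did not overlap. Others were chosen after their values were seen, such as tiles read in the 3 deepest libraries, CpGs with discordant strands and tiles with few shared positions. The 7 genes and the lists were chosen with earlier results of these data known. Other settings were a coverage minimum of 20, levels weighted by reads, each library's own positions, shifted tiles, 1 shared position per tile, and leaving out each library. Those for single positions and for groups not overlapping were added after seeing the data.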

Additional observations from a re-analysis of the deposited data

How the results depend on the processing

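The limits are few libraries and little depth: 208 of 1837 listed positions were shared, wild-type 1 had a median of 17 reads at them, and most of each gene body was not read. Of the 61 alternatives for the 7 whole-locus differences, 45 kept the sign, 15 turned it and 1 brought the value to 0; the cause was not tested. No p could pass 0.05 in any of them. Weighted by reads, the difference was -1.97 points in Dnmt3a, -4.50 in Dnmt3b, -0.803 in Tet3 and -2.62 in Idh2. With a coverage minimum of 20 it was -1.33 in Dnmt3a and -2.14 in Tet1, while Tet2 and Idh2 had no position left. Tet1 was at -0.137 over the 3 libraries with low X methylation, and Idh2 at -2.45 over each library's own positions, where libraries differ in which positions they list. In that setting the other differences grew, to 17.5 points in Tet3, 10.96 in Tet1, 6.85 in Dnmt3a, 5.12 in Dnmt1, 3.98 in Dnmt3b and 2.31 in Tet2, so that Tet3 was the widest. Leaving out each library in turn gave -0.792 to 1.36 points for Dnmt1, -0.463 to 0.769 for Dnmt3a, -0.211 to 0.983 for Dnmt3b and 0.537 to 5.06 for Tet1. It gave 0 to 0.0334 for Tet2 (0 without knock-in 3), 0.132 to 0.661 for Tet3 and -1.33 to 1.89 for Idh2. Tiles called by edgeR over all autosomes stayed at 0 in every setting run. Positions called were 1 at first, 0 with a coverage minimum of 20, 0 by limma, and 1 to 3 when a library was left out (3 without wild-type 2). Member tiles whose groups did not overlap numbered 0 to 5 of 19 with a library left out: 5 without wild-type 1, where the share was 26.3% beside 30.8% of all tiles, and 3 without knock-in 1 (15.8% beside 20.3%). Member positions went from 3 to between 5 and 20 of 208, the highest without wild-type 1 (9.62% beside 13.3% of all shared positions). No paired analysis was possible because the labels give no replicate numbers shared between the groups. Of 108 alternatives for the 13 named tiles 92 moved by less than the spread between libraries and 16 by more. Among the 108, 15 changed sign, such as Idh2 from 87254000 (-0.179 to 7.94 points without wild-type 1). Of 15 alternatives for the 3 named positions 13 stayed within that spread, 2 moved by more and 0 changed sign.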
